A study of Mus musculus with 44 samples.

Results

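Ceramide and sphingomyelin synthesis was followed through 10 genes in the livers of male C57BL/6N mice, aged 11 to 12 weeks, that had run on a treadmill once or had stayed sedentary on 1 of 2 diets. The genes were Sptlc1, Sptlc2, Degs1, Cers2, Cers4, Cers5, Cers6, Sgms1, Smpd1 and Asah1, out of 22180 genes that have a probe set annotated to exactly 1 symbol on the Affymetrix Mouse Gene 2.1 ST array. They have 12 such probe sets among 41345, and the probe set with the highest mean over all 44 arrays was used for each gene, so that the probe sets were chosen by measured values. Cers6 was itself chosen by the study from these arrays, as a transcript that differed between the exercised diets and with exercise on the control diet. Its values in these comparisons are therefore given as a description with no p-value, and the counts of enzymes that passed a threshold in them are given for the other enzymes. Exercised mice on the vitamin E diet (n = 12), exercised mice on the control diet (n = 12), sedentary mice on the vitamin E diet (n = 10) and sedentary mice on the control diet (n = 10) each had their own array. Both diets were fed for 4 weeks, the enriched one with 2000 IU/kg vitamin E together with 100 mg/kg vitamin C and the control one with 149 IU/kg vitamin E and no added vitamin C, so that the vitamins cannot be told apart. The mice ran uphill (14°) at a speed of 13 m/min for 60 min, and sedentary mice stayed near the treadmill without food for the same 60 min. Livers of the exercised mice were taken immediately after the run, so no later time was measured.

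Ceramide is the hub of sphingolipid metabolism. Serine palmitoyltransferase joins serine and palmitoyl-CoA in the first step, a ceramide synthase adds the second acyl chain, and dihydroceramide desaturase completes the ceramide. The ceramide synthases differ in the chain length they prefer: CERS2 makes the very-long-chain ceramides that prevail in liver, while CERS5 and CERS6 make long-chain palmitoyl ceramides, which in mouse liver have been linked to insulin resistance. Ceramide is turned into sphingomyelin by sphingomyelin synthases, is set free from it again by sphingomyelinases, and is broken down to sphingosine by ceramidases.

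All values are RMA log2 expression levels, on which a difference of 1 is a doubling. Levels of different probe sets are not set against each other. The correlation between any pair of arrays lay between 0.9506 and 0.9726, and precision depends on how many mice a group holds. The hepatocyte marker list averaged 11.03 to 11.29 on every array. Of the neutrophil and lymphocyte lists, 2 of 7 and 1 of 5 genes passed the expression filter. In whole liver, fewer cells of a type and less RNA per cell cannot be told apart.

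The promoter of Cers6 is shown because this gene had the widest differences between groups, with the TGACG core of the cAMP response element and an E-box (CACGTG) in capitals. The 300 bases, 250 before the start site and 50 from it on, lie at chr2:68861191-68861490 on the plus strand of GRCm38.p6, as given by RefSeq.
Cers6: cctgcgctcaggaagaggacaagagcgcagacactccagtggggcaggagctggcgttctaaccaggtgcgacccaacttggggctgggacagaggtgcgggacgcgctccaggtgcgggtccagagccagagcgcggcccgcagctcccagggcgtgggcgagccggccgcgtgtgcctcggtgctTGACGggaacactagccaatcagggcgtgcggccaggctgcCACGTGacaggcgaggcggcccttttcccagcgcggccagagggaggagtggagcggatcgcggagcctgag
The E-box starts 22 bases before the start site and the TGACG core 63 bases before it. For comparison, stretches of 40 bases around the E-boxes of Cers2 (chr3:95315044-95315083, plus strand) and Degs1 (chr1:182282216-182282255, minus strand), whose group means lay close together, are given with the E-box in capitals.
Cers2: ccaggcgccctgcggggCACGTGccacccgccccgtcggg
Degs1: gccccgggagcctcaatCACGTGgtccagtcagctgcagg
Promoters were found for 9 of the 10 genes, all but Asah1, with 13 windows in all. The motifs were searched on both strands. An E-box was present in 3 of the 13 windows, against 7.15% of all 32851 mouse promoters, and the TGACG core in 3 (Cers6, Sptlc1 and Sgms1), against 20.8%. The full element (TGACGTCA), which contains the core, and the sterol response element (TCACNCCAC) were in none of the 13, against 1.79% and 1.24% of all promoters. These matches describe the letters only.

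**Figure D1:**
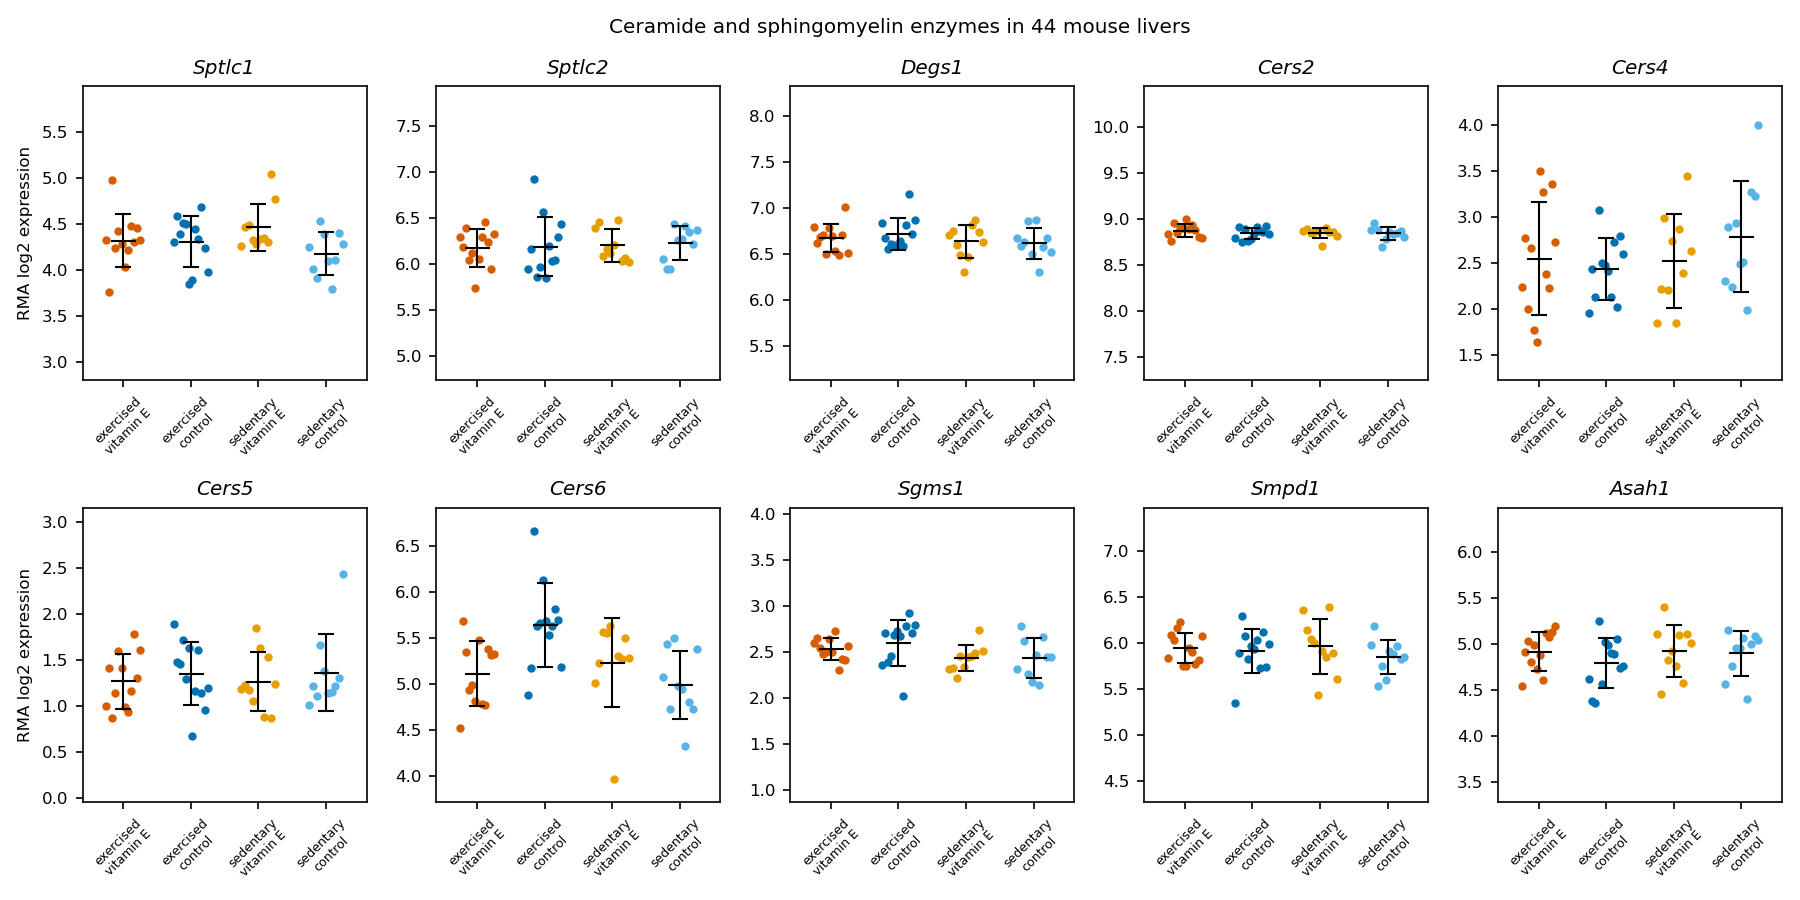
RMA log2 expression of the 10 enzymes (vertical axes, each spanning 3.2 log2 units) in each of the 44 livers, by diet and exercise. Points are mice, horizontal bars are group means and whiskers 1 SD. Cers6 of the exercised control mice stands above the other groups, with a mean of 5.636, while Cers2 forms a narrow line in all groups.

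Cers6, a ceramide synthase for palmitoyl chains, was lower in exercised vitamin E mice than in exercised control mice. Its level ranged from 4.517 to 5.681 with a median of 5.144 in exercised vitamin E mice, and from 4.877 to 6.661 with a median of 5.64 in exercised control mice. The ranges overlapped, but 11 of the 12 mice on vitamin E were below the exercised control mean and 4 were below every exercised control mouse. Mean levels were 5.107 ± 0.354 and 5.636 ± 0.461 for the vitamin E and control diets (SD, n = 12 each), so that the log2 difference was -0.53 with a standard error of 0.17 and the fold change 0.693.

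On the control diet, Cers6 was higher in the exercised mice than in the sedentary mice, in which it ranged from 4.321 to 5.494 with a median of 4.957. Of the 12 exercised mice, 11 lay above the sedentary mean of 4.985 ± 0.370 (SD, n = 10) and 9 lay above all 10 sedentary mice. The log2 difference was 0.65, with a standard error of 0.18, and the fold change 1.57. On the vitamin E diet, exercise left no such gap: the difference was -0.12, with a standard error of 0.18, and 6 of the 12 exercised mice lay above and 6 below the sedentary mean of 5.226 ± 0.483 (SD, n = 10). The difference between the diets in the response to exercise, which contains both comparisons that the study chose, was -0.77 (standard error 0.25).

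In sedentary mice, a comparison for which Cers6 was not chosen, the supplemented group had a mean of 5.226 ± 0.483 and the control group one of 4.985 ± 0.370 (SD, n = 10 each). The sedentary control mice also enter the exercise comparison for which Cers6 was chosen, so the test that follows is not free of that choice. The difference of 0.24 (95% interval -0.13 to 0.61, unadjusted p = 0.198 and adjusted p = 1 from limma) did not pass the test. The lowest liver of the series, sedentary vitamin E mouse 6 at 3.966, lay in this group, and 9 of the 10 supplemented mice were above the sedentary control mean. In order of mean level, the groups ran from exercised control over sedentary vitamin E and exercised vitamin E to sedentary control, and the ranges of neighbours in this order overlapped.

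The 2 livers with the most Cers6 were exercised control mice 3 (6.661) and 6 (6.125). They also had the highest means of the acute-phase genes, the liver's inflammatory secretory products, at 11.041 and 10.784, whereas the other exercised control mice lay between 7.009 and 8.469. Without both mice the log2 fold change of Cers6 was -0.38 for vitamin E against control diet in exercised mice and 0.50 for exercise on the control diet. Exercised vitamin E mouse 2, the highest of its group in Cers6 (5.681), was likewise highest in acute-phase genes (9.047). Sedentary vitamin E mouse 1 ran the other way: its acute-phase mean of 10.092 was exceeded only by exercised control mice 3 and 6 and its Kupffer cell mean of 6.112 was the highest of its group, while its Cers6 (5.001) was the second lowest there. Without the 5 livers with the highest acute-phase or Kupffer cell means, Cers6 averaged 5.054 ± 0.319 (SD, n = 11) in exercised vitamin E mice, 5.484 ± 0.301 (SD, n = 10) in exercised control mice, 5.213 ± 0.526 (SD, n = 8) in sedentary vitamin E mice and 4.985 ± 0.370 (SD, n = 10) in sedentary control mice.

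The medians of 7 of the 8 marker and acute-phase lists lay on the same side of 0 as the differences of Cers6 in both comparisons, the stellate cell list being the exception. So did the medians over all probe sets tested, at -0.015 for diet in exercised mice and 0.016 for exercise on the control diet. Of all probe sets, 54.9% and 46.4% had lower means in these comparisons, which both contain the exercised control mice. All 7 measured acute-phase genes had lower means in exercised vitamin E than in exercised control mice (median log2 fold change -0.70) and higher means in exercised than in sedentary mice on the control diet (median 0.52). The same held for all 8 Kupffer cell and macrophage genes, with medians of -0.16 and 0.33, as well as for the 2 neutrophil genes that passed the filter, with medians of -0.54 and 0.27, and for the 3 such cholangiocyte genes, with medians of -0.20 and 0.08. None of these genes passed the adjusted test. Medians over mice of the 2 neutrophil genes ran the other way. For S100a8 they were 1.446 in exercised control, 1.5305 in exercised vitamin E and 1.5885 in sedentary control mice. For S100a9 they were 1.3475, 1.5015 and 1.556. The highest values, 7.778 and 6.498, were both in exercised control mouse 6. Between exercised and sedentary control mice, medians of Saa2 and Apcs were also lower after exercise, and those of the other measured acute-phase genes higher. Marco of the Kupffer list and Sox9 of the cholangiocyte list had lower medians there too, and the other tested genes of these lists higher ones. Between the exercised diets, medians of Orm1, Apcs and the Kupffer cell gene Vsig4 were higher with vitamin E. Those of the other tested genes of these 3 lists were lower. Neutrophil list means were 2.996 and 3.432 in exercised control mice 3 and 6, the 2 highest of the series. Kupffer list means ranged from 3.819 to 5.871 in exercised vitamin E mice, 3.917 to 6.252 in exercised control mice, 3.766 to 6.112 in sedentary vitamin E mice and 3.531 to 5.180 in sedentary control mice, with the least expressed gene of the list at a mean of 1.77 to 2.50. Acute-phase means ranged from 7.054 to 9.047, 7.009 to 11.041, 7.107 to 10.092 and 6.846 to 8.297 in these 4 groups. Their part in the values of Cers6 was not tested.

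The animal numbers of the mice begin with 24 or 27, and both series are present in every group. Among mice of the 24 series, the log2 fold change of Cers6 was -0.64 for vitamin E against control diet after exercise and 0.58 for exercise on the control diet. In the 27 series alone the values were -0.42 and 0.78, in the same directions. The study chose Cers6 for these differences on the arrays of both series together, so that neither series is an independent repeat. Both acute-phase-rich exercised control mice belonged to the 24 series. So did the other livers with the highest acute-phase or Kupffer cell means, exercised vitamin E mouse 2 and sedentary vitamin E mice 1 and 3.

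**Figure D2:**
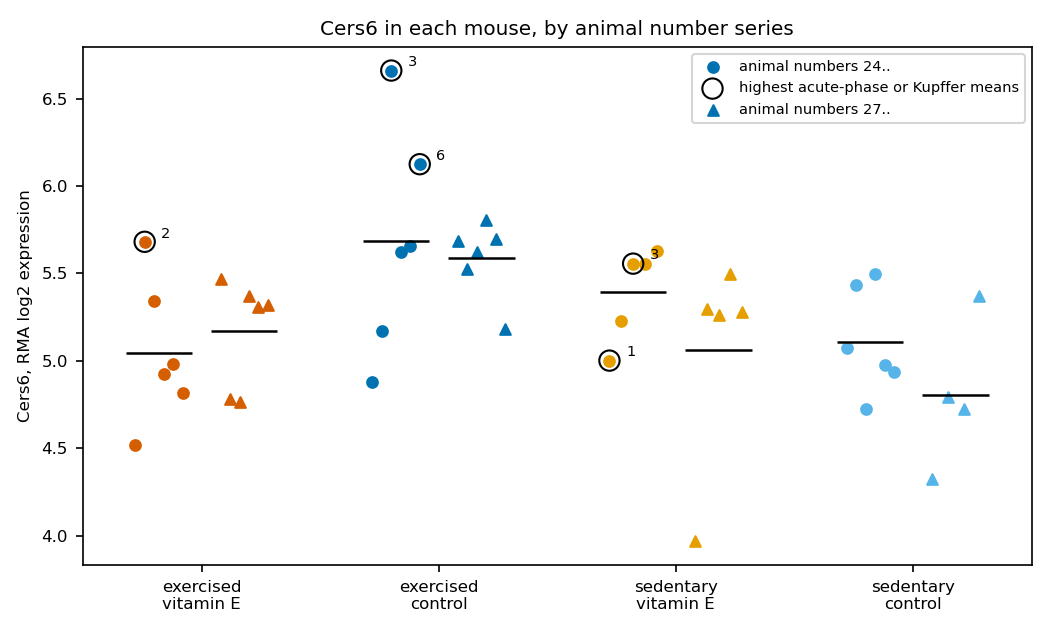
Cers6 (RMA log2 expression, vertical axis) in each liver, by group, with animal numbers beginning with 24 as circles on the left and with 27 as triangles on the right of each group. Horizontal lines are means within a series, and rings with mouse numbers mark the 5 livers with the highest acute-phase or Kupffer cell means. Exercised control mice 3 and 6 hold the 2 highest values, 6.661 and 6.125, and sedentary vitamin E mouse 6 the lowest, 3.966.

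The transcripts whose values followed Cers6 most closely over the 44 arrays, after group means were subtracted, were Gnpnat1 (Pearson's r = 0.607), an enzyme of amino sugar synthesis, the fibrinogen chains Fgg (0.590) and Fga (0.589), the macrophage gene Mpeg1 (0.586) and the signalling adaptor Pik3ap1 (0.584). Over the 39 arrays without the 5 livers named above, these were 0.516, 0.487, 0.485, 0.496 and 0.350. Sedentary vitamin E mouse 6, the lowest in Cers6, is in both sets of arrays. The 5 genes were picked as the highest of 11565 kept probe sets with 1 symbol. How high the largest of so many correlations would be by chance was not tested. The enzyme pairs that follow were not picked in this way, so the values are not compared. Within the pathway, residual levels of the tested enzymes were at most weakly related across the 44 arrays, with r between -0.219 (Sptlc2 and Sgms1) and 0.372 (Cers4 and Asah1), and Cers6 was nearest to Cers4 (0.366) and Asah1 (0.309).

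**Figure D3:**
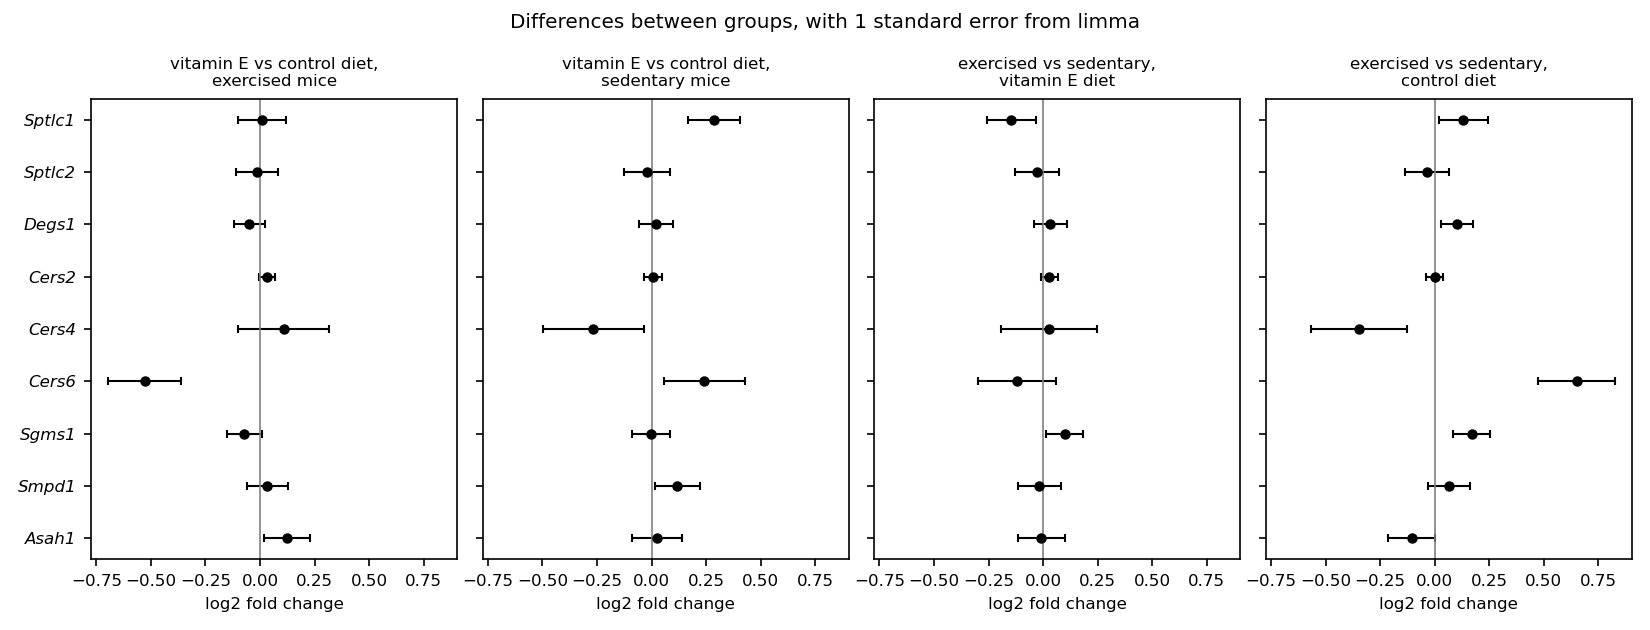
Log2 fold changes (horizontal axes) of the 9 enzymes that passed the expression filter in the 4 comparisons of diet and exercise. Points are limma estimates and whiskers 1 standard error. Cers6 lies farthest from 0 in both comparisons that include the exercised control mice (-0.53 and 0.65), for which the study chose it, and Cers2 lies at 0 with the smallest errors.

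Of the 10 enzymes, 9 passed the expression filter, and the 8 of these other than Cers6 were counted. For vitamin E against control diet, 0 of the 8 passed an adjusted p under 0.05 from limma in exercised and in sedentary mice, where 0% of all 18522 probe sets tested did so. For exercise against the sedentary state, 0 of 8 passed on the vitamin E diet and 0 of 8 on the control diet, against 0.232% and 0.68% of all probe sets. The interaction of diet and exercise gave 0 of 8 and 0%.

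At an unadjusted limma p under 0.05, none of the 8 passed for diet in exercised mice, against 5.6% of all probe sets, and 1 was higher with vitamin E in sedentary mice (Sptlc1, against 4.77%). With exercise, none passed on the vitamin E diet, against 6.16% of probe sets, and 1 was higher on the control diet (Sgms1, against 9.39%). For the interaction none passed, against 5.49%. The study's own threshold was an unadjusted p under 0.05 together with medians more than 1.2-fold apart, and none of the 8 passed it in any comparison, against 3.26% of probe sets for diet in exercised mice, 3.61% for diet in sedentary mice, 4.4% for exercise on the vitamin E diet and 6.1% for exercise on the control diet. The comparisons share mice: the exercised control group enters both for which Cers6 was chosen.

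Sptlc1, the subunit shared by all forms of serine palmitoyltransferase, was higher in sedentary vitamin E mice than in sedentary control mice before adjustment only. It ranged from 4.264 to 5.041 with a median of 4.339 in sedentary vitamin E mice, and from 3.792 to 4.527 with a median of 4.179 in sedentary control mice. All 10 supplemented mice lay above the control mean, although 8 of them were within the control range. The log2 fold change was 0.29 (standard error 0.12, 95% interval 0.05 to 0.53, unadjusted p = 0.02, adjusted p = 1 from limma). It was 0.17 in the 24 series alone and 0.42 in the 27 series alone. In this comparison all 8 Kupffer cell genes (median log2 fold change 0.49) and 4 of the 5 sinusoidal endothelial genes (median 0.21) also had higher means with vitamin E, none past the adjusted test. Of all probe sets tested, 44% had lower means with vitamin E here. Without the 5 livers with the highest acute-phase or Kupffer cell means, the difference of Sptlc1 was 0.31 (unadjusted p = 0.0134, adjusted p = 0.952). In exercised mice the level was 4.317 ± 0.286 with vitamin E and 4.307 ± 0.274 on the control diet (SD, n = 12 each), a difference of 0.01 (95% interval -0.21 to 0.23). The difference between the diet effects in exercised and sedentary mice was -0.28 (unadjusted p = 0.0915, adjusted p = 0.911).

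Sptlc2, which carries the catalytic site of the enzyme, did not follow Sptlc1. Its group means were 6.168 ± 0.203 (SD, n = 12) in exercised vitamin E, 6.182 ± 0.323 (SD, n = 12) in exercised control, 6.197 ± 0.176 (SD, n = 10) in sedentary vitamin E and 6.219 ± 0.185 (SD, n = 10) in sedentary control mice. Its widest difference among the 4 comparisons was -0.04, with a 95% interval of -0.24 to 0.17. Its highest liver was exercised control mouse 3, at 6.922. Degs1, the dihydroceramide desaturase, was 6.717 ± 0.173 (SD, n = 12) in exercised control mice and 6.615 ± 0.168 (SD, n = 10) in sedentary control mice. That difference of 0.10 (95% interval -0.05 to 0.25, unadjusted p = 0.179) was its widest, and the ranges, 6.555 to 7.151 and 6.297 to 6.865, overlapped.

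Cers2, the ceramide synthase for very long chains, varied least. It stayed between 8.758 and 9.000 in exercised vitamin E mice, 8.745 and 8.922 in exercised control mice, 8.709 and 8.899 in sedentary vitamin E mice and 8.692 and 8.962 in sedentary control mice, with an SD of 0.064 over all 44 arrays. Exercise on the control diet gave a log2 fold change of 0.00 (95% interval -0.08 to 0.08), and vitamin E in exercised mice 0.03 (95% interval -0.04 to 0.11). A second Cers2 probe set, with a mean of only 1.877, gave -0.43 for exercise on the control diet (standard error 0.21, unadjusted p = 0.0509) and was not used.

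Cers4 and Cers5 were measured close to the lower end of the scale. Cers4, a synthase for ceramides of intermediate chain length, ranged from 1.960 to 3.077 in exercised control mice (median 2.456) and from 1.985 to 4.003 in sedentary control mice (median 2.703). The difference of -0.35 (95% interval -0.79 to 0.10, unadjusted p = 0.122, adjusted p = 0.65 from limma) was its widest and did not pass the test. In exercised vitamin E mice Cers4 averaged 2.911 in the 27 series and 2.182 in the 24 series, and the diet difference in exercised mice was 0.11 in all mice, -0.25 in the 24 series alone and 0.46 in the 27 series alone. Cers5, which like Cers6 makes palmitoyl ceramides, had group means of 1.270 in exercised vitamin E, 1.354 in exercised control, 1.266 in sedentary vitamin E and 1.364 in sedentary control mice. It did not pass the expression filter in any group and was not tested.

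Sgms1, the sphingomyelin synthase of the Golgi apparatus, ranged from 2.017 to 2.919 in exercised control mice (median 2.696) and from 2.136 to 2.782 in sedentary control mice (median 2.448). Of the 12 exercised mice, 9 lay above the sedentary mean, but 2 lay above and 1 below all sedentary mice. The difference was 0.17, with a limma standard error of 0.08, an unadjusted p of 0.0483 and an adjusted p of 0.527. The unadjusted p was 0.112 in a fit of these 2 groups alone and 0.152 after median centring of the arrays. On the vitamin E diet the difference was 0.10 (95% interval -0.07 to 0.27).

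No difference of the lysosomal enzymes passed the test. Smpd1, acid sphingomyelinase, was 5.960 ± 0.300 (SD, n = 10) in sedentary vitamin E mice and 5.842 ± 0.188 (SD, n = 10) in sedentary control mice, its widest difference, at 0.12 (95% interval -0.09 to 0.33). Its second probe set gave -0.05 in this comparison (unadjusted p = 0.762). Asah1, acid ceramidase, was 4.919 ± 0.213 in exercised vitamin E mice and 4.795 ± 0.275 in exercised control mice (SD, n = 12 each), a difference of 0.12 (95% interval -0.09 to 0.33, unadjusted p = 0.241).

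Other genes of sphingolipid metabolism were read from 4 lists with 52 genes, of which 35 passed the filter. For diet, for exercise on the vitamin E diet and for the interaction, 0 of 35 passed the adjusted test. For exercise on the control diet 2 fell and 0 rose, against 0.68% of all probe sets called. The lists were chosen with earlier results of these data known, so these counts and tests are not free of that choice. Over all 35 genes the median log2 fold change of this comparison was 0.01, against 0.02 over all probe sets tested.

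The first was Ormdl1, an inhibitory subunit of serine palmitoyltransferase, from the list of de novo synthesis genes, of which 4 of 11 were tested (Ormdl1, Ormdl2, Ormdl3 and Kdsr). It ranged from 5.175 to 6.128 with a median of 5.773 in exercised control mice and from 5.733 to 6.514 with a median of 6.166 in sedentary control mice. All 12 exercised mice lay below the sedentary mean and 5 lay below all sedentary mice. This was a fall by 0.409 on the log2 scale (limma standard error 0.10, adjusted p = 0.0438). In a fit of these 2 groups alone the adjusted p was 0.136, and without exercised control mice 3 and 6, of which mouse 3 was the lowest, the difference was -0.33 (adjusted p = 0.154). Within the 24 and 27 series it was -0.53 (adjusted p = 0.351) and -0.26 (adjusted p = 0.816).

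Ormdl1 was also 0.29 higher in exercised vitamin E mice, at 6.047 ± 0.202, than in exercised control mice, at 5.759 ± 0.273 (SD, n = 12 each), with all 12 supplemented mice above the control mean, an unadjusted p of 0.00556 and an adjusted p of 0.78 from limma. Exercise on the vitamin E diet gave -0.16 (unadjusted p = 0.128), and the same exercised control mice enter the comparisons of diet and of exercise on the control diet.

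The second was B4galt5, a lactosylceramide synthase, from the glycosphingolipid list, of which 11 of 15 genes were tested. It ranged from 5.477 to 6.750 with a median of 5.864 in exercised control mice and from 6.200 to 6.686 with a median of 6.501 in sedentary control mice, and 9 of the 12 exercised mice lay below all sedentary mice. B4galt5 thus fell by 0.526 on the log2 scale (limma standard error 0.13, adjusted p = 0.0372). It was -0.53 without exercised control mice 3 and 6 as well, and -0.53 and -0.54 within the 24 and 27 series, but the adjusted p was 0.449 and 0.473 in the single series and 0.0882 in a fit of these 2 groups alone. On the vitamin E diet exercised mice had 6.189 ± 0.320 (SD, n = 12) and sedentary mice 6.531 ± 0.263 (SD, n = 10), a difference of -0.34 (unadjusted p = 0.011, adjusted p = 0.522).

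Among the 7 of 9 genes tested for sphingomyelin synthesis, transfer and breakdown, 6 had lower means after exercise on each diet, with medians of -0.08 on the vitamin E diet and -0.12 on the control diet, and none was called. Of all probe sets tested, 56% had lower means after exercise on the vitamin E diet and 46.4% on the control diet. Cert1, the ceramide transfer protein that carries ceramide to the site of sphingomyelin synthesis, differed by -0.39 on the vitamin E diet (unadjusted p = 0.00403, adjusted p = 0.377 from limma) and by -0.30 on the control diet (unadjusted p = 0.0218, adjusted p = 0.407). It was 5.852 ± 0.349 (SD, n = 12) in exercised vitamin E mice and 6.238 ± 0.199 (SD, n = 10) in sedentary vitamin E mice, and 8 of the 12 exercised mice lay below all 10 sedentary mice.

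Of the ceramidases and sphingosine 1-phosphate genes, 13 of 17 were tested and none was called. Acer2, the Golgi alkaline ceramidase, was 3.729 ± 0.317 (SD, n = 12) in exercised control mice and 3.301 ± 0.302 (SD, n = 10) in sedentary control mice, with a difference of 0.43 (unadjusted p = 0.00482, adjusted p = 0.235 from limma), and differed by 0.30 on the vitamin E diet (unadjusted p = 0.0429). S1pr3, a sphingosine 1-phosphate receptor, differed by 0.50 on the control diet (unadjusted p = 0.00386, adjusted p = 0.218), at means of only 1.973 and 1.469 in exercised and sedentary mice. On the vitamin E diet these means were 1.773 and 1.597. Sphk2, a sphingosine kinase, differed by -0.29 on the vitamin E diet (unadjusted p = 0.00442, adjusted p = 0.403). On the control diet its means were 4.847 in exercised and 4.915 in sedentary mice.

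Glycosphingolipid genes other than B4galt5 were not called either. St3gal5, the synthase of ganglioside GM3, was 9.235 ± 0.367 (SD, n = 12) in exercised control mice and 8.892 ± 0.257 (SD, n = 10) in sedentary control mice (unadjusted p = 0.00717, adjusted p = 0.278 from limma), with 7 of the 12 exercised mice above all sedentary mice. On the vitamin E diet its mean was also higher in exercised mice, at 9.130 ± 0.240 (SD, n = 12) against 8.901 ± 0.239 (SD, n = 10). Ugcg, the glucosylceramide synthase, differed by -0.31 on the control diet (unadjusted p = 0.0189, adjusted p = 0.386) and by -0.035 on the vitamin E diet (unadjusted p = 0.787).

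**Figure D4:**
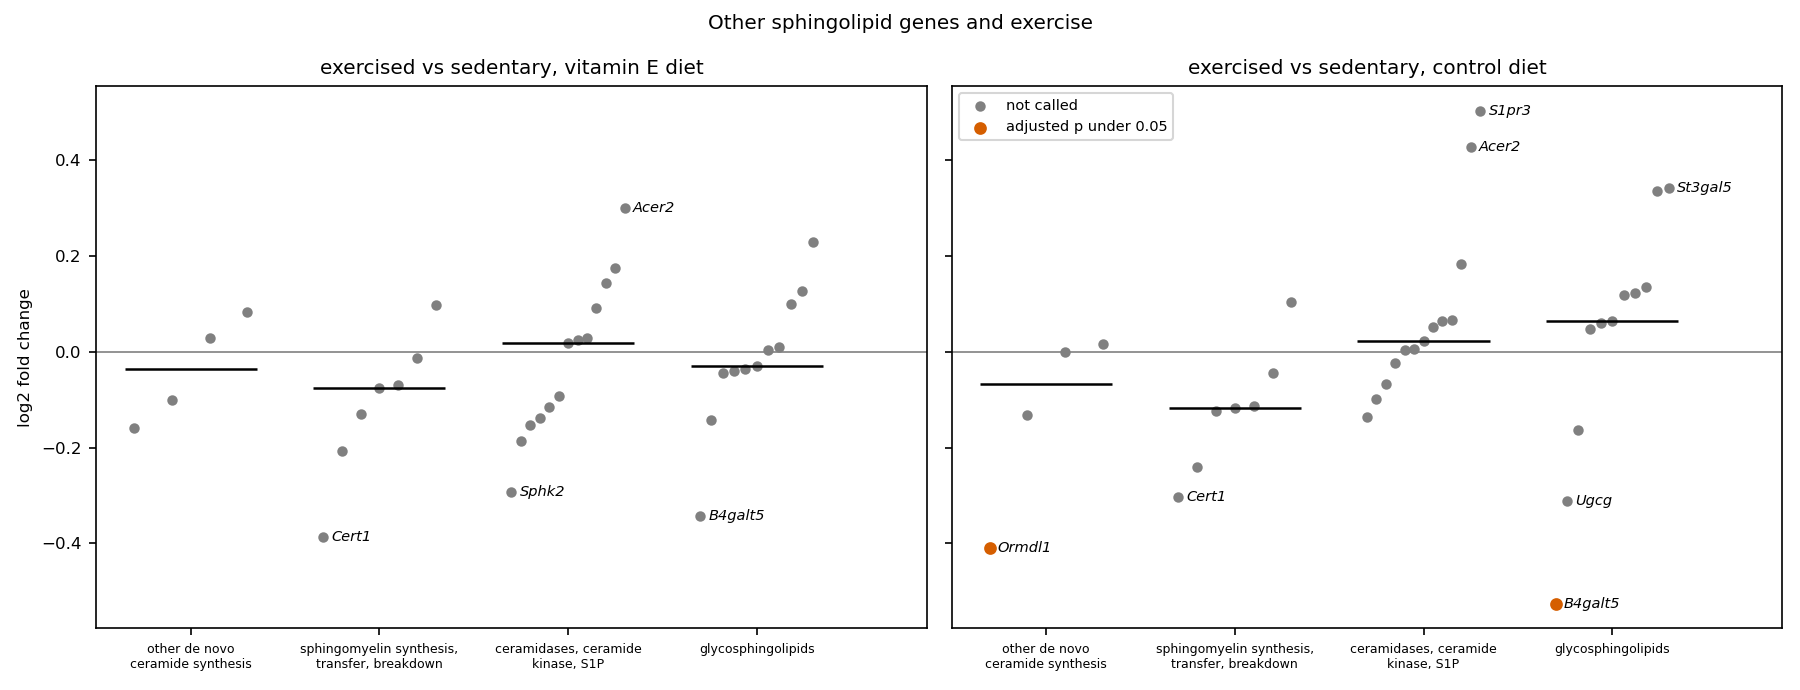
Log2 fold changes with exercise (vertical axis) of the 35 other sphingolipid genes that passed the filter, on the vitamin E diet on the left and the control diet on the right, by list. Grey points were not called, orange points had an adjusted p under 0.05, lines are list medians, and genes with an unadjusted p under 0.05 are named. Ormdl1 (-0.41) and B4galt5 (-0.53) on the control diet are the 2 orange points.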

How the data were processed

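Livers of 44 mice, 1 Affymetrix Mouse Gene 2.1 ST array each, were analysed. The deposited values are log2 expression values, which the authors made by RMA in Affymetrix Expression Console, and they were not normalized again. The array annotation gave exactly 1 symbol for 23521 of 41345 probe sets, several for 1820 and none for 16004. As in the study's methods, probe sets with a linear mean above 4 in at least 1 group were kept (18522). A single limma model (limma 3.58.1, R 4.3.3) held all 4 groups, and p-values were adjusted by Benjamini and Hochberg's method across the kept probe sets, with a threshold of 0.05. The procedure was tested on simulated data. The enzymes, gene lists and motifs were chosen with earlier results of these data known, and of each list up to 4 genes per comparison with the smallest unadjusted p under 0.05 were named, together with the 5 genes most correlated with Cers6. The labels name no array batch, and the animal numbers, which begin with 24 or 27, were used as a block and to split the mice. Alternatives were other filters, scalings, fits, blocks and subsets of mice. Figures were drawn with Python 3.11.15.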

Additional observations from a re-analysis of the deposited data

Results flagged for a closer look

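In 20 sets of sedentary mice (10 enzymes in 2 groups of 10), single mice far from the rest of their group were sought, and 3 were found past Dixon's 95% critical value, at which chance flags about 1 in 20 groups. Cers6 in sedentary vitamin E mouse 6 was 3.966, against 5.001 for the next mouse, a gap of 0.622 of the group's range. The same mouse had the lowest Cers2 of its group, at 8.709 against 8.814 for the next (0.553 of the range). Cers5 in sedentary control mouse 10 was 2.441, against 1.664 for the next (0.544 of the range).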

How the results depend on the processing

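Under 16 alternatives, 632 of 691 log2 fold changes of the enzymes kept their sign, none with an unadjusted p under 0.05 reversed, and the 59 that changed sign had no p under 0.05 in either fit and a size of at most 0.248. Many of these values could not change sign, so the count does not measure robustness. Other filters, other estimates of the spread and a fit of the 2 groups alone leave a difference of group means as it is. Leaving out mice does so too where their group is not compared. The number of enzymes called for exercise on the control diet was 0, but 1 with the stricter filter (a mean log2 level above 5 in at least 1 group) and 1 without sedentary vitamin E mouse 6, an exclusion chosen after the data were seen. In both it was Cers6, which the study had chosen in this comparison, so that nothing is read from it. It stayed 0 for the other comparisons. Correlations of same-numbered mice ran from -0.065 to 0.095, and between the 2 exercised groups from 0.021 to 0.087. They were not set against differently numbered mice, so they cannot decide whether replicate numbers pair the mice. With the replicate block 0 enzymes were called. Ormdl1 with exercise on the control diet also lost its call with the replicate block (-0.415, adjusted p = 0.0766), without a filter (0.0955), with array weights (0.0804) and with the animal number series as a block (0.0512) and without the 5 livers richest in acute-phase or Kupffer cell transcripts (0.137), and B4galt5 without a filter (0.0762). The causes were not tested. Signals near the lower end of the scale limit Cers4, Cers5 and Sgms1.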
